A study of Mus musculus with 6 samples.

Results

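The MS4A genes encode small proteins that cross the cell membrane 4 times, and most of them lie next to each other on mouse chromosome 19. The 10 genes described here are *Ms4a1*, *Ms4a4a*, *Ms4a4b*, *Ms4a4c*, *Ms4a6b*, *Ms4a6c*, *Ms4a6d*, *Ms4a7*, *Ms4a8a* and *Ms4a14*, found by symbol among the 23424 genes of each count table. They were chosen by name from a view of the same F4/80high against F4/80low difference that is given below, so that difference is a description of these genes and not a test of them. The samples were F4/80high and F4/80low TAMs (tumor-associated macrophages) from YUMM1.7 tumors. YUMM1.7 cells are a melanoma line of the mouse, and the tumors grew after intradermal injection into female C57Bl/6J mice of wild-type genotype that were 8 weeks old at tumor induction and had no treatment. On day 21, live CD45+ CD11b+ cells were sorted into both subsets by their F4/80, and the study's methods add a lineage-negative gate whose antibodies are not named for this sort. Each library came from 10 pooled tumors in 1 of 3 independent experiments, which gave 3 libraries for each subset, so no value belongs to a single animal. The study's plot of the libraries shows 2 batches, with replicates 1 and 2 of each subset in batch 1 and the replicate 3 libraries in batch 2.

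The MS4A family is best known for *Ms4a1*, which encodes CD20 on B cells, and for *Ms4a2*, the beta chain of the high-affinity IgE receptor of mast cells and basophils. *Ms4a4a*, *Ms4a6b*, *Ms4a6c*, *Ms4a6d* and *Ms4a7* are known from monocytes, macrophages and microglia, where MS4A proteins sit beside other receptors and alter their signaling or turnover. *Ms4a4b* is known from T and NK cells, where it modulates receptor signaling. The members with the largest differences are described first, then those known from macrophages and those known from lymphocytes.

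Levels are given as CPM, the count scaled to a common library size by TMM factors, in replicates 1, 2 and 3 of each subset. Total counts ran from 16045281 to 43604373, with the smallest totals in batch 2. There 3 counts correspond to 0.3243 CPM in F4/80high replicate 3 and to 0.3423 CPM in F4/80low replicate 3. The 10 genes took 0.0817% to 0.314% of all counts, and each had at least 2413 counts over the 6 libraries, so all 10 passed the filter of 10 counts. *Adgre1*, which encodes F4/80, was at 273.3, 539.4 and 360.3 CPM in F4/80high libraries and at 243.1, 326.5 and 183.5 CPM in F4/80low libraries, higher in F4/80high in each of the 3 pairs although the 2 ranges overlapped.

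In the RefSeq set for GRCm38.p6, 8 of the 10 genes had a promoter window, with 2 windows for *Ms4a7*. The 250 bases before the annotated start are printed for the genes on which the results turn, 5′ to 3′ on the strand of the gene, and capitals mark matches to the motifs searched. For the 2 genes that were higher in F4/80high in every pair, *Ms4a7* and *Ms4a14*, the windows were chr19:11336147-11336396 and chr19:11334696-11334945 for *Ms4a7* and chr19:11314455-11314704 for *Ms4a14*, all on the minus strand. For *Ms4a8a*, which was lower in every pair, the window was chr19:11081104-11081353 on the minus strand.
Ms4a7, outer start: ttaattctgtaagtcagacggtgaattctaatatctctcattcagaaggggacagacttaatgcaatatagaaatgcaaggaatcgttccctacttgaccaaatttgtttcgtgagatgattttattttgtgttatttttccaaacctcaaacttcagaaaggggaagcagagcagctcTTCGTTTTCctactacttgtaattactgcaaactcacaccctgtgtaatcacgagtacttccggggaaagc
Ms4a7, inner start: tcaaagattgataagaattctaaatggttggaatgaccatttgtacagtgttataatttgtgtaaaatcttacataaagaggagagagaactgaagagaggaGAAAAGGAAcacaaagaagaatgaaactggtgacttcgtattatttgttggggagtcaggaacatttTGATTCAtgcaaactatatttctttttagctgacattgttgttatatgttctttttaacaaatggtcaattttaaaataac
Ms4a14: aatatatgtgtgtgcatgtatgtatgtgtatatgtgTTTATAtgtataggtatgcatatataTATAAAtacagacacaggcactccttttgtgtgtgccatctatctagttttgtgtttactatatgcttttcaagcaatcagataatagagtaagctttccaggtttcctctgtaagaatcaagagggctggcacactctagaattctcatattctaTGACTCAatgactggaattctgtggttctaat
Ms4a8a: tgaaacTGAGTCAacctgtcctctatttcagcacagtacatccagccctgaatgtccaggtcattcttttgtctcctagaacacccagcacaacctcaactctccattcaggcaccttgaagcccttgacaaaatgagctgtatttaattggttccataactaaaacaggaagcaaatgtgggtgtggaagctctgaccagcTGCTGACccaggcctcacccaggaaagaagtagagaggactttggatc

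The outer *Ms4a7* window held the reverse complement of the IRF letters GAAANNGAA at 71 to 63 bases before the start, written with its position as -71 to -63. The inner *Ms4a7* window held the same letters at -148 to -140 and the AP-1 letters TGANTCA at -81 to -75. *Ms4a14* had TGANTCA at -32 to -26 and 2 matches to the TATA box letters TATAAA, at -214 and -188. *Ms4a8a* had TGANTCA at -244 to -238 and the MAF motif TGCTGAC at -48 to -42. On both strands and in windows of the same length, TGANTCA was present in 6.75% of 32851 RefSeq promoters, GAAANNGAA in 7.13%, TATAAA in 12.4% and TGCTGAC in 3.81%. No member window held the PU.1 letters GAGGAAGT (2.44% of promoters), the E-box CACGTG (6.02%) or the C/EBP letters TTGCNNAAT (2.11%), and the windows of *Ms4a4a* and *Ms4a4c* held none of the 7 motifs. A match to such short letters is not evidence that a factor binds there, and no overlap between motifs was removed.

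*Ms4a6c* and *Ms4a6b* shared the longest run of upstream sequence. Their windows were chr19:11469118-11469367 and chr19:11518309-11518558 on the plus strand.
Ms4a6c: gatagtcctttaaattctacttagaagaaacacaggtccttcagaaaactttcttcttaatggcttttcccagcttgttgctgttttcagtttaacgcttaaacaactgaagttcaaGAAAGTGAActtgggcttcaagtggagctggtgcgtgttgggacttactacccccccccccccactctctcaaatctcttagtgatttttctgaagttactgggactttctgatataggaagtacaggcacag
Ms4a6b: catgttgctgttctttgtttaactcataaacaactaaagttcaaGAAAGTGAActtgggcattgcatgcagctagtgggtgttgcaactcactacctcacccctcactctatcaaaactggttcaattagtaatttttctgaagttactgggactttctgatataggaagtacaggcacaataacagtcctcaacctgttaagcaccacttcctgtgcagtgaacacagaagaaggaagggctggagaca

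In this pair a run of 48 bases was identical, starting at -49 in *Ms4a6c* and at -118 in *Ms4a6b*, and both windows held GAAANNGAA, at -133 to -125 and at -206 to -198. *Ms4a4c* and *Ms4a4b* shared a run of 20 bases. No other pair of windows, the 2 starts of *Ms4a7* included, shared more than 9 bases in a row.

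*Ms4a7* and *Ms4a14* were the members with the largest differences, and both were higher in F4/80high TAMs. They are neighbours on the chromosome: *Ms4a14* lies at chr19:11301249-11314454 and *Ms4a7* at chr19:11321039-11336146, both on the minus strand of GRCm38. *Ms4a7* is a gene of mature macrophages and, in the brain, of macrophages at its borders. Its level was 220.7, 495.8 and 173.5 CPM in F4/80high libraries and 45.91, 184.1 and 31.83 CPM in F4/80low replicates 1, 2 and 3. Every F4/80high library stood above its F4/80low partner of the same replicate number, but F4/80low replicate 2 stood above F4/80high replicate 3, so the subsets overlapped. The pair differences were 2.26, 1.43 and 2.44 on the log2 scale. With batch as a term, the fitted log2 fold change was 1.90 ± 0.51 (SE), which is 3.73-fold, from means of 296.7 ± 174.1 and 87.29 ± 84.16 CPM (SD, n = 3 each).

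*Ms4a14* was much less abundant and separated the subsets more clearly. Its level was 11.43, 31.34 and 16.11 CPM in F4/80high libraries and 3.615, 4.769 and 1.825 CPM in F4/80low libraries. All 3 F4/80high libraries stood above all 3 F4/80low libraries, with no overlap. The pair differences were 1.64, 2.70 and 3.10 on the log2 scale, and the fitted log2 fold change was 2.58 ± 0.46 (SE), or 5.97-fold. The mean was 19.63 ± 10.41 CPM in F4/80high libraries and 3.403 ± 1.483 CPM in F4/80low (SD, n = 3 each).

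**Figure D1:**
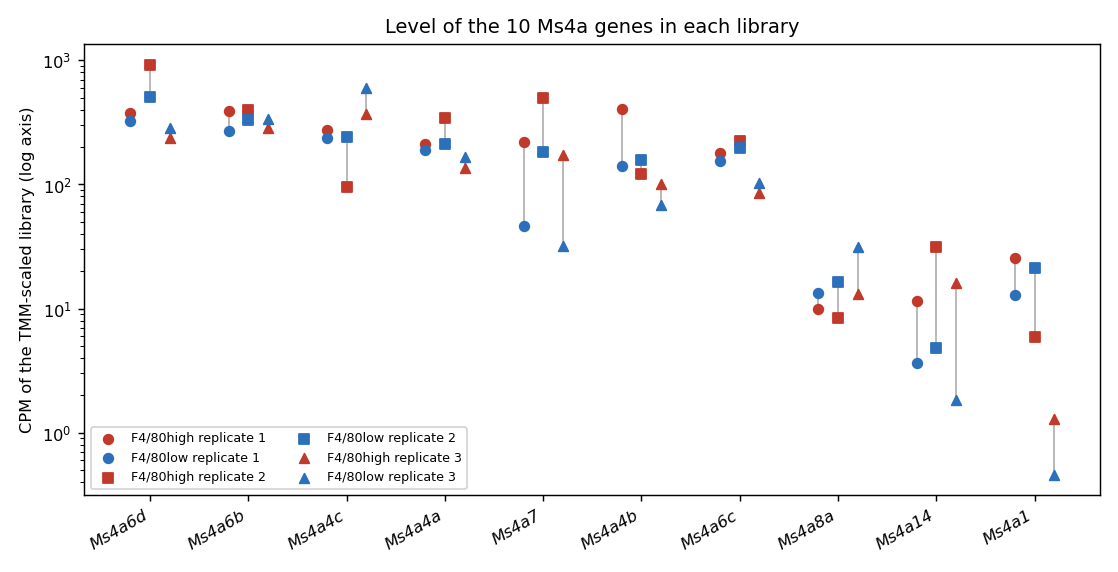
Level of each of the 10 genes, in CPM of the TMM-scaled library on a log axis. Marker shapes give the replicate, and a gray line joins same-numbered libraries. Ms4a14 is the member whose F4/80high libraries, at 11.43 to 31.34 CPM, all lie above its F4/80low libraries, at 1.825 to 4.769 CPM, and Ms4a8a is the member with the opposite arrangement.

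A call was an adjusted p under 0.05 with an absolute log2 fold change above 1 in edgeR's quasi-likelihood test. With batch as a term, 0 of the 10 members were called, where 0% of the 14645 protein-coding genes tested were called (0 genes, and 1113 at an unadjusted p under 0.05, 3 members among them). With the replicate number, not the batch, as a block, 2 members were called, both higher in F4/80high, *Ms4a7* (log2 fold change 2.04 ± 0.25, SE) and *Ms4a14* (2.47 ± 0.40). In that fit 0.519% of all genes were called and 0.232% were called higher in F4/80high. DESeq2 with batch called the same 2 members, and 1.02% of all genes. Since the genes were chosen from this contrast, nothing is read from these counts.

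Other members set beside *Ms4a7* show how it changed relative to its own family. *Ms4a7* made up 10.5%, 18.7% and 12.2% of the summed CPM of the 10 genes in F4/80high libraries, and 3.30%, 9.85% and 1.96% in F4/80low libraries. *Ms4a6d*, chosen for this after its values were seen, is an abundant member with overlapping subsets. The ratio of *Ms4a7* to *Ms4a6d* was 0.590, 0.535 and 0.731 in F4/80high libraries and 0.142, 0.361 and 0.111 in F4/80low libraries, and it does not depend on the scaling of a library. The lowest F4/80high ratio was 0.535 and the highest F4/80low ratio was 0.361. Both genes of the ratio were chosen with values of this contrast known, and no share over all genes was computed. Nothing is read from this separation.

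Genes of other cell types differed between the same libraries. Of 12 genes listed for resident-type macrophages, such as *Mrc1*, *Cd163* and *Folr2*, 10 were called higher in F4/80high with the block. DESeq2 with batch called 3 and edgeR with batch 0. Over all genes tested, 0.232% were called higher with the block and 1.02% were called by DESeq2. The study had already reported *Mrc1* and *Cd163* as elevated in F4/80high TAMs from these libraries. The median log2 fold change of the 12 genes was 2.23 in the batch fit. It was 1.38 when F4/80high replicate 2 was left out and 3.29 without F4/80low replicate 2. The summed level of these genes was 1250 to 4420 CPM in F4/80high libraries and 340 to 1200 CPM in F4/80low. In the batch fit 11 of the 12 were above 0, and *Timd4* was below (-0.89, lower in F4/80high in all 3 pairs). *Lyve1* (1.74) was higher in 2 pairs and was not called with the block. Of 10 neutrophil genes, 6 were called lower with the block, 5 were called by DESeq2 and 0 in edgeR with batch. Their summed level was 753 to 2150 CPM in F4/80high libraries and 1530 to 4910 CPM in F4/80low. Their median was -1.28, and -0.82 without F4/80low replicate 1. The 9 eosinophil genes had a median of -1.65, with 0 called in edgeR with batch (7 at an unadjusted p under 0.05) or with the block and 5 by DESeq2 (179 to 533 against 406 to 1520 CPM). None of these lists had a gene at 0 in every library. Over all genes tested the median log2 fold change was 0.009. The part of these cells in the differences of *Ms4a7* and *Ms4a14* was not tested, and in bulk samples fewer cells of a type and less RNA per cell cannot be told apart.

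*Ms4a8a* and *Ms4a4c* had the opposite sign. *Ms4a8a*, a member described in alternatively activated macrophages, lies at chr19:11067471-11081102 on the minus strand. Its level was 9.894, 8.412 and 13.19 CPM in F4/80high libraries and 13.38, 16.23 and 31.15 CPM in F4/80low libraries. The 3 F4/80low libraries stood above the 3 F4/80high libraries, although the gap between 13.19 and 13.38 CPM was narrow. The pair differences were -0.43, -0.94 and -1.24, and the fitted log2 fold change was -0.87 ± 0.29 (SE), 1.83-fold higher in F4/80low.

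*Ms4a4c*, known from Ly6C-high monocytes and from interferon responses, lies at chr19:11404770-11427246 on the plus strand. Its level was 274.8, 96.26 and 371.2 CPM in F4/80high libraries and 239.1, 239.8 and 601.5 CPM in F4/80low libraries. The subsets overlapped, and pair 1 went the other way from pairs 2 and 3, with differences of 0.20, -1.32 and -0.70. The fitted log2 fold change was -0.48 ± 0.35 (SE), and it ranged from -1.05 without F4/80high replicate 1 to -0.20 without F4/80high replicate 2. The 11 monocyte genes listed, such as *Ccr2*, *Fn1* and *Chil3*, had a median log2 fold change of -0.72, with 8 below 0 and 3 above 0 (*F13a1*, *Fn1* and *Ly6c1*). With the block 2 were called lower (*Vcan* and *Chil3*), and in edgeR with batch 0 were called. Their summed level, over the 11 genes, was 2810 to 5550 CPM in F4/80high libraries and 4030 to 9880 CPM in F4/80low. Their part in the values of *Ms4a8a* and *Ms4a4c* was not tested.

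Over the 10 genes, 2 were higher in F4/80high in all 3 pairs (*Ms4a7* and *Ms4a14*), beside 17.7% of all genes tested, and 1 was lower in all 3 (*Ms4a8a*), beside 16% of all genes. The libraries of the subsets were fully apart for 1 member in each direction: *Ms4a14* above, beside 2.3% of all genes, and *Ms4a8a* below, beside 2.9%. The remaining 7 members changed sign between pairs. The median fitted log2 fold change of the members was 0.21, with 8 above 0 and 2 below, and their median pair differences were 0.39, 0.25 and -0.25 in pairs 1, 2 and 3.

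**Figure D2:**
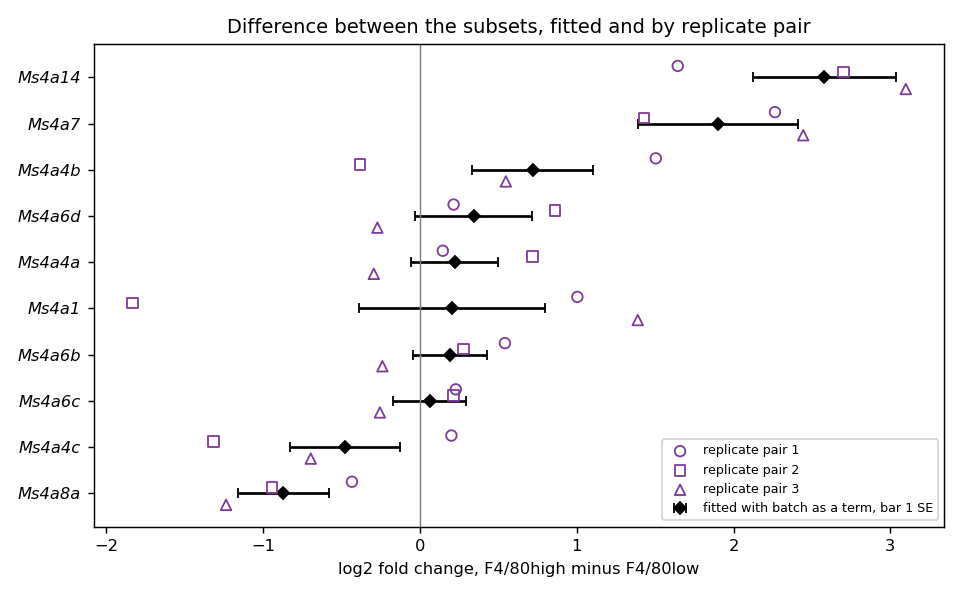
Log2 fold change of F4/80high against F4/80low for each gene, with a black diamond for the fitted value (bar, 1 SE) and open markers for the 3 replicate pairs. The 3 pair values of Ms4a7 (1.43 to 2.44) and Ms4a14 (1.64 to 3.10) lie above 0 and those of Ms4a8a (-1.24 to -0.43) below 0, while the other 7 genes have pairs on both sides.

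The *Ms4a6* genes and *Ms4a4a*, the members most at home in macrophages, were abundant and differed little between the subsets. *Ms4a4a* encodes a surface protein of macrophages that associates with Dectin-1 and is linked to the release of TREM2. It was at 210.3, 346.0 and 134.8 CPM in F4/80high libraries and at 190.0, 210.4 and 165.3 CPM in F4/80low libraries. The F4/80low values lay inside the range of the F4/80high values, and the log2 fold change was 0.22 ± 0.28 (SE).

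*Ms4a6d*, which is reported to act as an adapter for other receptors of macrophages, had 1 library well above the rest. It was at 374.1, 926.8 and 237.4 CPM in F4/80high libraries and at 322.3, 510.6 and 286.5 CPM in F4/80low libraries. Replicate 2 was the highest library of each subset. The log2 fold change was 0.34 ± 0.38 (SE), and without F4/80high replicate 2 it was -0.24.

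*Ms4a6b* was at 393.4, 399.7 and 283.8 CPM in F4/80high libraries and at 270.3, 329.7 and 335.0 CPM in F4/80low libraries, with a log2 fold change of 0.19 ± 0.24 (SE). *Ms4a6c* was at 180.6, 226.1 and 85.94 CPM in F4/80high libraries and at 154.1, 195.0 and 102.6 CPM in F4/80low libraries, with a log2 fold change of 0.06 ± 0.23 (SE). For *Ms4a4a*, *Ms4a6b*, *Ms4a6c* and *Ms4a6d* alike, pairs 1 and 2 were higher in F4/80high and pair 3 was lower, with pair 3 between -0.29 and -0.24. Pair 3 is also the only pair of batch 2, so experiment and batch cannot be told apart there.

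The sequence overlap of the members limits some of these values. Of the 50-base words in the annotated transcripts of *Ms4a6c*, 51.4% also occurred in another gene. Genes outside the family were searched on both strands, and genes of the family on the strand of their transcripts only. Of the 1028 shared words, 993 occurred in *BE692007*, a processed transcript, on either strand, and 117 were shared with *Ms4a6b*. *BE692007* itself had 480 to 1531 counts per library, but whether counting used the strand is not given in the sources used here. Reads of *Ms4a6c* and of *BE692007* in the shared sequence therefore cannot be told apart. For *Ms4a4c*, 8.19% of the words were shared, 135 of them with *Ms4a4b*. The share was 3.57% for *Ms4a6b*, 2.54% for *Ms4a6d*, 2.40% for *Ms4a4b*, 1.21% for *Ms4a1* and 0.306% for *Ms4a7*, and it was 0 for *Ms4a14*, *Ms4a4a* and *Ms4a8a*.

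*Ms4a4b* and *Ms4a1* are genes of lymphocytes, and marker genes of T cells and of B cells were detected in these libraries too. *Ms4a4b* was at 402.2, 121.0 and 100.4 CPM in F4/80high libraries and at 141.8, 157.7 and 68.68 CPM in F4/80low libraries. F4/80high replicate 1 stood far above the rest and the subsets overlapped. The pair differences were 1.5, -0.38 and 0.55, and the log2 fold change of 0.72 ± 0.39 (SE) was 0.06 without F4/80high replicate 1.

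The 18 genes listed for T and NK cells, led by *Gzmb* and *Il2rb*, summed to 3040, 869 and 432 CPM in F4/80high libraries and to 1200, 1260 and 246 CPM in F4/80low libraries. The 6 libraries had the same order by *Ms4a4b* and by this sum, 6 of 6 ranks alike. *Ms4a4b* came to 11.8% to 13.9% of the sum in the 4 libraries of batch 1 and to 23.2% and 27.9% in the 2 libraries of batch 2. Of the 18 genes 0 were called between the subsets in edgeR with batch (3 at an unadjusted p under 0.05), with the block or in DESeq2, with 17 above 0 and a median log2 fold change of 0.83, which was 0.16 without F4/80high replicate 1. *Cd3e*, a subunit of the T cell receptor complex, was at 163.0, 59.21 and 34.70 CPM in F4/80high libraries and at 52.49, 68.76 and 14.60 CPM in F4/80low libraries, so the defining markers of T cells were detected in every library. The part of T and NK cells in the *Ms4a4b* values was not tested.

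*Ms4a1* was at 25.64, 5.867 and 1.297 CPM in F4/80high libraries and at 12.75, 21.07 and 0.4563 CPM in F4/80low libraries. The batch 2 values rest on 12 and 4 counts. Pair differences were 1.00, -1.83 and 1.39, the subsets overlapped, and the log2 fold change was 0.21 ± 0.59 (SE). Without F4/80high replicate 1 it was -0.60, and with no batch term it was -0.06, so no direction can be given.

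The 14 B cell genes listed summed to 238, 118 and 41.4 CPM in F4/80high libraries and to 173, 264 and 68.3 CPM in F4/80low libraries. The 4 libraries highest in *Ms4a1* were also the 4 highest in this sum, and 2 of 6 ranks were alike. *Cd79a*, a subunit of the B cell receptor complex, was at 52.52, 24.46 and 1.838 CPM in F4/80high libraries and at 29.60, 52.59 and 4.107 CPM in F4/80low libraries. Of the 14 genes 0 were called between the subsets in edgeR with batch (1 at an unadjusted p under 0.05), with the block or in DESeq2, with 4 above 0, 10 below and a median log2 fold change of -0.13. This median was -0.86 without F4/80high replicate 1, 0.22 without F4/80high replicate 2 and 0.03 with F4/80low replicate 2 left out, so it has no steady sign. Their part in the *Ms4a1* values was not tested. The replicate 3 libraries are the 2 lowest on both measures, and no correlation is given.

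**Figure D3:**
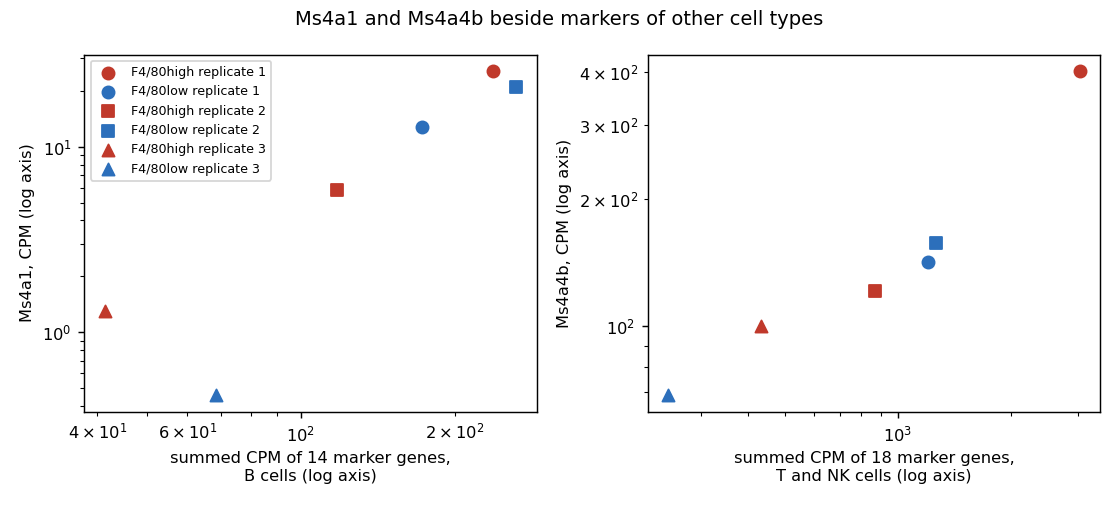
Ms4a1 against the summed CPM of 14 B cell genes, and Ms4a4b against the summed CPM of 18 T and NK cell genes, in each of the 6 libraries, on log axes. In both panels F4/80high replicate 1 has the highest level of the member, at 25.64 and 402.2 CPM, and the replicate 3 libraries lie at the lower left.

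Levels of different members were compared as CPM per kb of the gene length in the deposited tables. Ordered by the mean of the log2 level over the 6 libraries, *Ms4a4a* came first, at 161 to 414 CPM per kb. It was followed by *Ms4a6d* (137 to 534), *Ms4a4c* (55.0 to 344), *Ms4a6b* (60.3 to 89.1), *Ms4a6c* (41.9 to 110.0) and *Ms4a7* (7.15 to 111). *Ms4a4b* (13 to 76.3), *Ms4a8a* (4.69 to 17.4), *Ms4a14* (0.449 to 7.71) and *Ms4a1* (0.0738 to 4.14) were the lowest.

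No neighbours in this order were ordered alike in all 6 libraries. *Ms4a4a* stood above *Ms4a6d* in 4 libraries and *Ms4a6b* above *Ms4a6c* in 2, and the other neighbouring pairs held in 3 to 5 of the 6. *Ms4a6b* and *Ms4a6c* had mean levels per kb of 80.0 ± 14.5 and 80.1 ± 34.9 in F4/80high libraries and of 69.5 ± 8.01 and 73.4 ± 22.6 in F4/80low (SD, n = 3 each). The rank of *Ms4a7* among the 10 varied from 3 in F4/80high replicate 2 to 8 in F4/80low replicate 3. The deposited length of *Ms4a4b*, 5274 bases, is 0.601 of its merged exon length in GENCODE M21, and the other 9 members have equal lengths, but the order was the same with M21 lengths.

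The 10 genes lie in 537 kb of chromosome 19, chr19:11067471-11604849, which holds 17 protein-coding genes in M21, 14 of them named Ms4a. By rising coordinate the order is *Ms4a8a* (fitted log2 fold change -0.87), *Ms4a1* (0.21), *Ms4a14* (2.58), *Ms4a7* (1.90), *Ms4a4a* (0.22), *Ms4a4c* (-0.48), *Ms4a4b* (0.72), *Ms4a6c* (0.06), *Ms4a6b* (0.19) and *Ms4a6d* (0.34). *Ms4a14* and *Ms4a7* are next to each other, while *Ms4a4a*, the next gene beyond *Ms4a7*, lies on the other strand and differed far less. Of the region's other protein-coding genes, *Ms4a4d* is described with the rest of the family, and the remaining 6 are not analysed here.

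**Figure D4:**
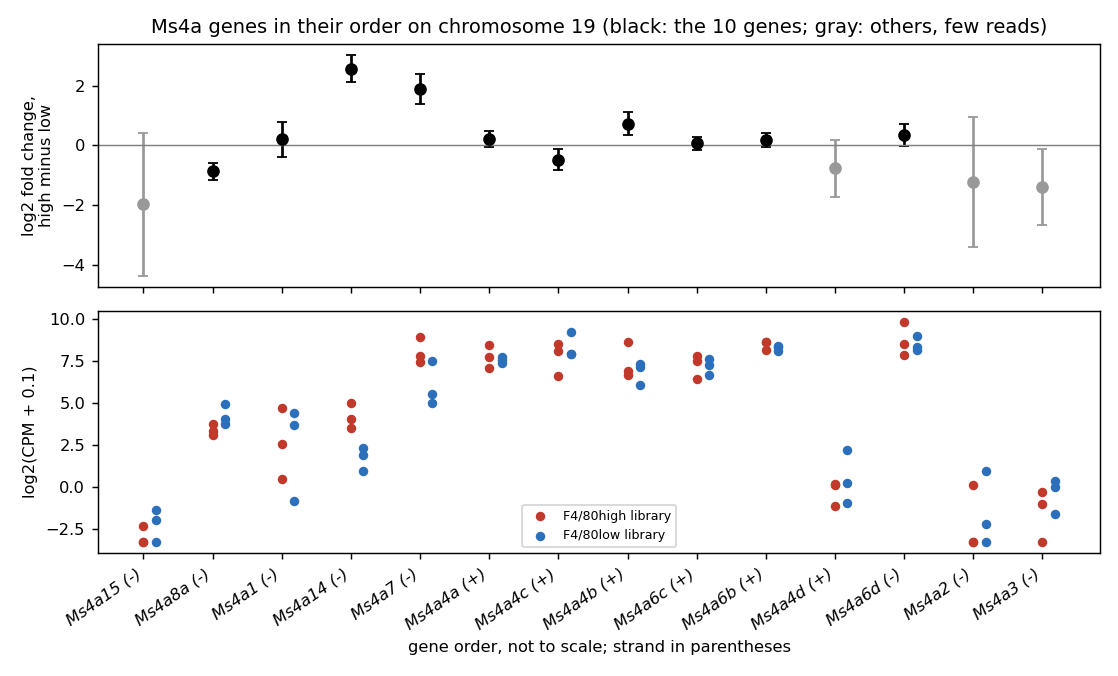
The Ms4a genes of chromosome 19 in their order, not to scale, with the fitted log2 fold change of F4/80high against F4/80low in the upper panel (bars, 1 SE) and log2(CPM + 0.1) of each library in the lower panel. Black points are the 10 genes and gray points the others, which have few reads. The neighbours Ms4a14 and Ms4a7 stand out at 2.58 and 1.90.

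The other genes of the family in the tables were 4 Ms4a genes and the related pair *Tmem176a* and *Tmem176b*. None of the 6 was called in either fit. *Ms4a2* had 110 counts in all, 38 and 71 of them in replicate 1 of F4/80high and F4/80low and 1 in the other 4 libraries together. The mast cell and basophil genes had a median log2 fold change of -0.97 over 11 genes, with 0 called in edgeR with batch or the block and 0 by DESeq2, and 1 at an unadjusted p under 0.05 with batch. Leaving out 1 library moved this median from -3.54 (without F4/80high replicate 1) to -0.21 (without F4/80low replicate 1). *Ms4a3*, a gene of granulocyte and monocyte precursors, had 133 counts over the libraries, *Ms4a4d* 165 and *Ms4a15* 21, too few for a level.

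*Tmem176a* and *Tmem176b* encode ion channels of macrophages and dendritic cells, and they overlap head to head on chromosome 6, so their reads at the overlap cannot be told apart. *Tmem176b* was at 155.5, 131.3 and 132.4 CPM in F4/80high libraries and at 98.75, 125.8 and 37.31 CPM in F4/80low libraries. The F4/80high libraries were all above the F4/80low libraries, by as little as 131.3 against 125.8 CPM. With the block its log2 fold change was 0.83 ± 0.32 (SE, adjusted p = 0.415 in edgeR). *Tmem176a* was at 69.49, 49.48 and 43.57 CPM in F4/80high libraries and at 33.44, 53.82 and 16.88 CPM in F4/80low libraries. The subsets overlapped for *Tmem176a*, with a log2 fold change of 0.76 ± 0.31 with the block (SE, adjusted p = 0.455 in edgeR).

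Receptors that are reported to pair with MS4A proteins were listed as well, and 1 of the 5 tested was called with the block. This was *Trem2*, a lipid receptor of macrophages whose soluble form is linked to *Ms4a4a*. *Trem2* was at 117.3, 323.1 and 52.32 CPM in F4/80high libraries and at 52.79, 144.4 and 17.68 CPM in F4/80low libraries. It was higher in F4/80high in every pair, and its log2 fold change of 1.29 ± 0.20 (SE) passed with the block (adjusted p = 0.0381 in edgeR) but not with batch as a term (adjusted p = 0.54).

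*Vsig4*, a complement receptor reported to act with *Ms4a6d*, was at 3.407, 29.53 and 0.3243 CPM in F4/80high libraries and at 0.8033, 5.187 and 0 CPM in F4/80low libraries. It was higher in each pair, but in pair 3 only from 3 counts against 0, and it was not called with the block (adjusted p = 0.103 in edgeR). *Fcer1g*, the common gamma chain of the IgE and IgG receptors, had a log2 fold change of 0.26 ± 0.24 (SE). *Tnfrsf18*, which encodes GITR and is reported to pair with *Ms4a4b*, had 0.09 ± 0.49 (SE). *Fcer1a*, the alpha chain of the IgE receptor, had -0.29 ± 1.5 (SE) at a mean of 1.019 CPM in F4/80high. *Clec7a*, which encodes Dectin-1, is no protein-coding gene by its M21 biotype and was not tested. Its counts, not scaled to library size, were 8890, 10641 and 2214 in F4/80high libraries and 15747, 10310 and 2407 in F4/80low. Only in replicate 2 was the F4/80high count higher, and there the F4/80high library was larger (43604373 against 32560608 counts in all). The median over the 5 genes tested was 0.26, and it leaves *Clec7a* out.

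Batch was the measure on which the choice of these genes did not rest. Batch 2 against batch 1, with subset as a term, called 3 of the 10 members, 2 lower and 1 higher in batch 2, beside 38% of all genes called, 20.2% lower and 17.9% higher. *Ms4a1* was lower in batch 2 by a log2 fold change of -4.24 ± 0.79 (SE, adjusted p = 0.00235 in edgeR). *Ms4a4b* was lower as well (-1.25 ± 0.43, adjusted p = 0.0424 in edgeR). *Ms4a4c* was higher (1.17 ± 0.36, adjusted p = 0.0273 in edgeR). *Ms4a1* was called in every alternative that kept the 2 libraries of batch 2. *Ms4a4b* lost its call with the size factors of DESeq2 in edgeR, where *Ms4a8a* gained one. *Ms4a4b* also lost it without F4/80high replicate 1, F4/80low replicate 1 or F4/80low replicate 2. *Ms4a4c* lost its call with genes of all biotypes, with library size alone and without F4/80low replicate 1 or F4/80low replicate 2. Leaving out F4/80high replicate 3 or F4/80low replicate 3 leaves 1 library in batch 2, and no call is read from those fits. The batch difference was then -1.12 and -1.38 for *Ms4a4b* and 1.33 and 1.00 for *Ms4a4c*. With all libraries *Ms4a6c* had an adjusted p of 0.0122 in edgeR, smaller than those of *Ms4a4b* and *Ms4a4c*, but a log2 fold change just inside -1.

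These differences need the scale of the libraries beside them. The median batch difference of all genes was -0.35 with TMM and -1.37 with library size alone. Relative to that median, *Ms4a1* was at -3.89, *Ms4a4b* at -0.90 and *Ms4a4c* at 1.52 with TMM, and at -3.90, -0.93 and 1.5 with library size alone. *Ms4a8a* had a batch difference of 0.81 ± 0.30 (SE) with TMM and -0.22 with library size alone, and relative to the median it was at 1.16 and 1.15. *Ms4a6b* lay at -0.15 with TMM and at 0.05 with the size factors of DESeq2.

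The cell type lists differed between the batches as well. Of the B cell genes 9 of 14 and of the T and NK cell genes 14 of 18 were called lower in batch 2, and none was called higher. Of the monocyte genes 4 of 11 were called higher, *Ccr2* among them, and 1 lower. The 2 libraries of batch 2 also had 89.3% and 89.9% of their counts in protein-coding genes, against 97.2% to 97.9% in batch 1. The part of the cells, the experiment and the library in the batch difference cannot be told apart, since batch 2 holds only the replicate 3 libraries.

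**Figure D5:**
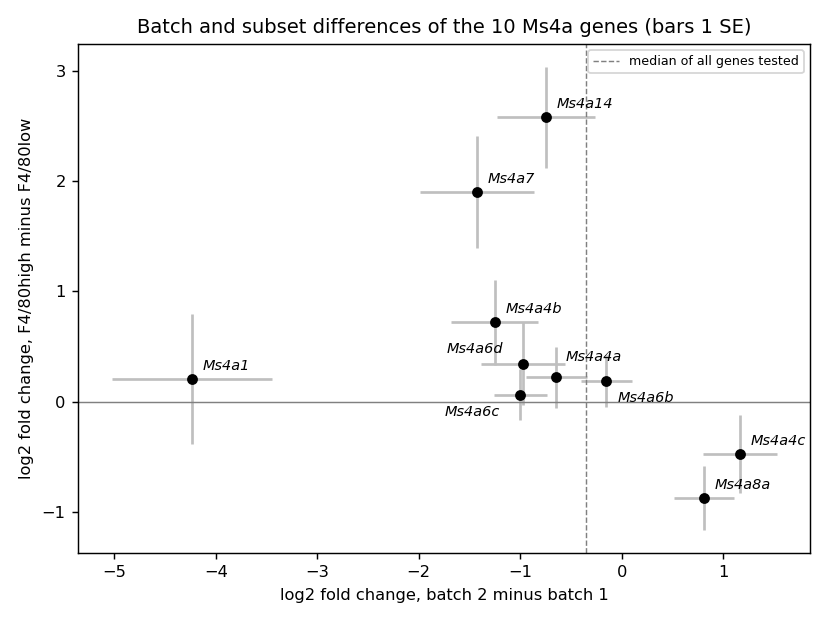
Fitted log2 fold change of F4/80high against F4/80low (vertical) and of batch 2 against batch 1 (horizontal) for each gene, with bars of 1 SE and the median batch difference of all genes tested, -0.35, as a dashed line. Ms4a1 lies far to the left at -4.24 with a subset difference near 0, while Ms4a7 and Ms4a14 have the largest subset differences, 1.90 and 2.58.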

How the data were processed

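The 6 libraries, 3 of each subset, were measured by bulk RNA-seq. The authors deposited raw read counts per gene with gene lengths and biotypes. Libraries were poly-A selected, and the aligner, counter, strand setting and annotation are not given in the sources used here. Gene IDs were matched to GENCODE M21 (GRCm38), 99.4% of them.

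In R 4.3.3, the 14645 protein-coding genes (M21 biotype) with at least 10 counts over the libraries were tested with edgeR 4.0.16 (limma 3.58.1), by the quasi-likelihood test with TMM factors (0.601 to 1.34) and terms for batch and subset. The p-values were adjusted by Benjamini-Hochberg over all genes tested. Calls had an adjusted p under 0.05 at a log2 fold change beyond 1 in either direction. For pair differences, a prior count of 2 was added before log2 CPM was taken. DESeq2 1.42.0, other scalings and filters, a replicate block and leaving out libraries were alternatives. The edgeR fits with batch and with the block were tested on simulated counts that held no pair differences. No library was a copy of another of its subset, and libraries of different subsets were not compared for this. A floor of 3 counts covers counting error only.

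Replicate numbers were taken to mark the 3 independent experiments, which the sample titles do not state. Same-numbered libraries deviated together from their subset means, with r = 0.745, 0.729 and 0.907 over 10072 expressed genes (mean log2 CPM 2 or more), against 0.612 and 0.633 between differently numbered libraries of batch 1, and so were treated as pairs. The 0.907 of replicate 3 cannot be told apart from batch.

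The members and the gene lists were chosen with earlier results of these data known. Named genes were the 10 members, the other Ms4a and Tmem176 genes, *Adgre1*, the reported partners, and up to 2 genes of each other list by mean CPM. *Chil3*, *Vcan*, *F13a1*, *Ly6c1*, *Cd163*, *Folr2*, *Timd4*, *Lyve1*, *Cd3e* and *Gm8369* were named after their values were seen.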

Additional observations from a re-analysis of the deposited data

How the results depend on the processing

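Over 16 alternatives the log2 fold change of F4/80high against F4/80low kept its sign for *Ms4a14* (2.09 to 2.99), *Ms4a7* (1.56 to 2.74), *Ms4a8a* (-1.003 to -0.692), *Ms4a4c* (-1.05 to -0.20), *Ms4a4b* (0.06 to 1.03) and *Ms4a6b* (0.05 to 0.40). It turned for *Ms4a1* with no batch term (-0.064), without F4/80high replicate 1 (-0.604), without F4/80high replicate 3 or F4/80low replicate 3 (-0.104 each) and without both (-0.099). Without F4/80high replicate 2 it turned for *Ms4a4a* (-0.114), *Ms4a6c* (-0.11) and *Ms4a6d* (-0.236), and without F4/80low replicate 1 for *Ms4a6c* (-0.075) and *Ms4a2* (2.54). Leaving out 1 library gave -0.604 to 0.793 for *Ms4a1*, -0.114 to 0.475 for *Ms4a4a*, -0.11 to 0.221 for *Ms4a6c*, -0.236 to 0.643 for *Ms4a6d* and -7.482 to 2.54 for *Ms4a2*. The cause was not tested. Leaving out F4/80high replicate 3, F4/80low replicate 3 or both gave nearly the same values, such as 2.35 for *Ms4a14* each time. A lone library in batch 2 is taken up by the batch term, so these settings are not separate checks.

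Between the subsets, 0 genes and 0 members were called in the fit with batch. DESeq2 called 150 genes and 2 members, and the replicate block, which uses the pairing, called 76 genes and 2 members, *Ms4a7* and *Ms4a14* each time. Leaving out 1 library gave 0 to 57 genes and 0 to 1 member, with 57 genes and *Ms4a14* called without F4/80high replicate 1. Between the batches, 5572 genes and 3 members were called. Leaving out 1 library gave 3650 to 5579 genes and 1 to 5 members, with 5 members without F4/80high replicate 1, 1 without F4/80high replicate 3, F4/80low replicate 2 or F4/80low replicate 3, and 3698 genes without F4/80high replicate 3. DESeq2 called 5 members and library size alone 8. The block changed no other member's call. Of the values of single genes and lists, 623 held under the alternatives, 5 passed the threshold anew and 10 turned. A further 23 moved, either counts of called genes that changed or medians that moved by more than the spread of their pairs. Part of the 623 was fixed in advance. A setting with the adjusted p alone reused the main fit, so its fold changes and medians could not differ. Where a fit called 0 genes between the subsets, every list count had to be 0 too.

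Depth limits *Ms4a1* in batch 2 and the 4 other Ms4a genes. With 3 experiments in 2 batches, the p-values measure the spread of few pooled samples. The tables hold no reads, so overlap with *BE692007* could not be resolved.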
